A study of Mus musculus with 8 samples.

Results

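The genes described here are 38 genes of apoptosis and of the response to the tumour suppressor p53, followed in the ileum of mice that lack Slc51a. They were taken as a named list, and each was read from the brightest array probe set that carries its symbol alone. Of the 38, 36 were measured in this way, out of 17097 genes in all. The genes Trp53, which encodes p53 itself, and Bax, which encodes a pore-forming protein of mitochondria, were not analysed here.

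The samples were ileal tissue from 4 Slc51a knockout mice and 4 wild-type mice, all males on a C57BL/6 background, about 2 months old and fasted for 4 h. Slc51a encodes the alpha subunit of the organic solute transporter, which passes bile acids out of the ileal enterocyte on its blood side. How the knockout was made, and whether it spares any cell type, is not given in the sources used here. The comparison asks how transcript levels in this tissue differ when the transporter is missing.

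Cells die by apoptosis along connected routes. In the mitochondrial route, BH3-only proteins either block the survival proteins of the BCL2 family or activate BAX and BAK, which open the outer mitochondrial membrane so that APAF1 can assemble caspase 9. In the death receptor route, FAS and FADD recruit caspase 8, which CFLAR restrains. The transcription factor p53 feeds both routes and also slows the cell cycle and resets metabolism, and MDM2 and MDM4 hold it in check. The intestinal epithelium renews itself constantly, with cells born in crypts and shed at villus tips.

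Signals are the deposited log2 values, on which a difference of 1 is a doubling, and every difference is knockout minus wild type with its standard error (SE). The adjusted p values come from limma, with the Benjamini-Hochberg method applied over 17097 genes, and a gene is said to have risen or fallen when its adjusted p was under 0.05. Slc51a itself was at 4.67, 4.50, 4.68 and 4.56 in the knockout samples, against 11.36, 11.41, 11.29 and 11.37 in the wild-type samples. It fell by 6.75 (SE 0.05, adjusted p = 4.86e-14), and the signal left in the knockout was close to 4.58, the median over all probe sets (the array-wide median). Where its deletion lies relative to the probe set is not known here. Array medians lay between 4.559 and 4.604, and correlations across genes were 0.9964 to 0.9978 within a genotype and 0.9855 to 0.9903 between genotypes. Knockout replicates 3 and 4 and wild type replicate 2 had the 3 lowest hybridization controls (8.74, 8.86 and 8.83), against 8.95 to 9.15 on the other arrays, so counts are also given without these 3 arrays. The labels number the samples as biological replicates but name no litter, cage or array batch.

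Of the 36 measured genes, 17 fell and 7 rose, while 12 did not pass. Of all genes tested, 30.0% passed, 17.1% higher and 12.9% lower in the knockout, while 66.7% of the 36 passed, with 47.2% lower and 19.4% higher. The 36 were chosen with earlier results of these data known, so their higher share may follow from that choice. The median difference of the 36 was -0.19, beside 0.01 over all genes tested. The knockout and wild-type samples did not overlap for 25 of the 36, 8 higher and 17 lower, against 30.7% of all genes. Dim probe sets, those under the array-wide median, pass less often, and only Bik among the 36 was dim. After leaving out genes below that median, 25 of 35 members passed (71.4%), against 45.5% of the 10929 genes left. With those 3 arrays left out, 4 members were called higher and 10 lower, against 20.4% of all genes called. With all arrays kept and an adjustment for these controls, 5 were called higher and 17 lower. In whole tissue, fewer cells of a type and less RNA per cell cannot be told apart.

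**Figure D1:**
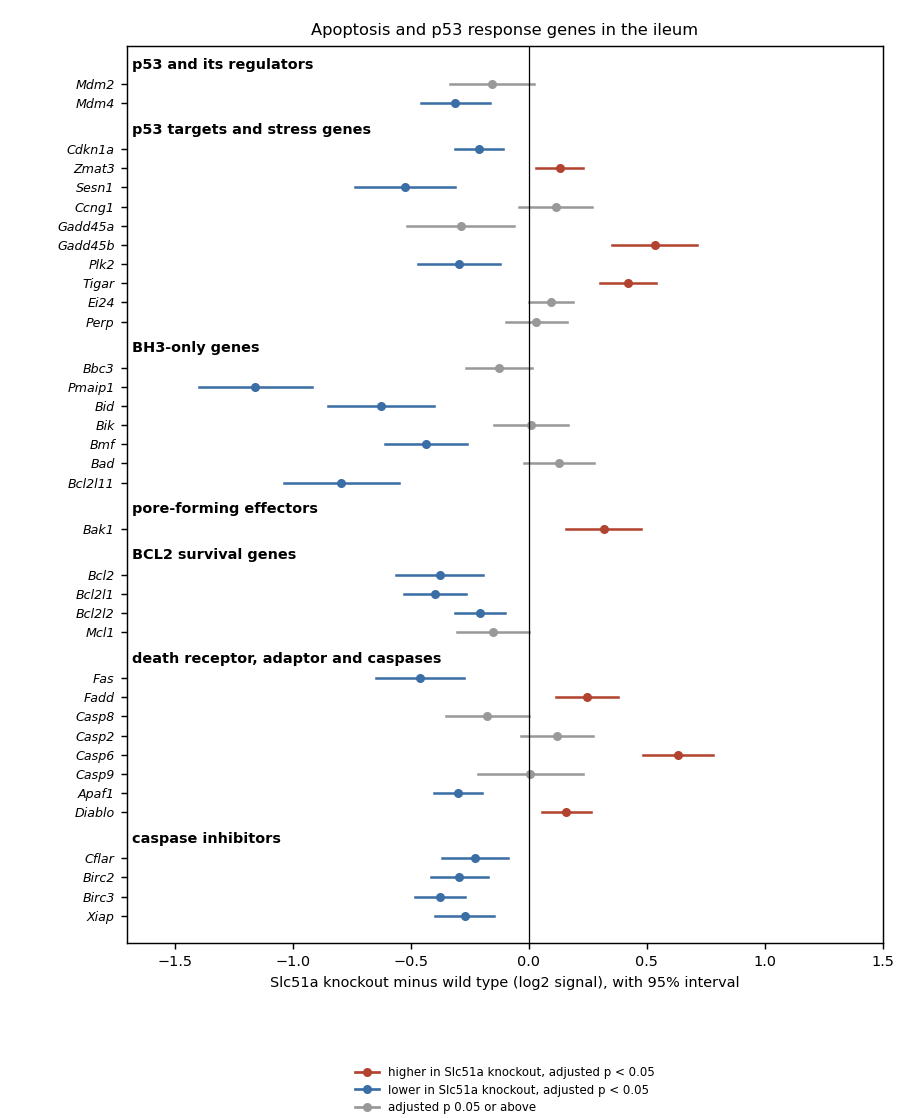
Difference in log2 signal, knockout minus wild type, for the 36 measured genes grouped by role, with lines for 95% intervals and n = 4 per genotype. Red points rose, blue points fell and grey points did not pass the test. All 4 caspase inhibitors and all 4 BCL2 survival genes lie on the lower side, with Mcl1 in grey. Casp6, Gadd45b, Tigar and Bak1 lie on the higher side.

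Of the genes that restrain p53, Mdm4 fell and Mdm2 did not pass. Mdm4, a relative of MDM2 that binds p53 and blocks its activity as a transcription factor, was at 7.20, 7.17, 7.28 and 7.14 in the knockout samples, against 7.33, 7.62, 7.59 and 7.50 in the wild-type samples. Every knockout sample lay below every wild-type sample. The Mdm4 difference was -0.31 (SE 0.07, adjusted p = 0.00433), but -0.07 (adjusted p = 0.220) as the mean of its 4 probe sets, 2 of which were dim. Mdm2, the ubiquitin ligase that marks p53 for destruction and is itself a p53 target, was at 7.15, 7.43, 7.31 and 7.31 in the knockout samples, against 7.33, 7.41, 7.68 and 7.41 in the wild-type samples. These groups overlapped, with a difference of -0.16 (95% interval -0.34 to 0.02, adjusted p = 0.185). A second, dimmer Mdm2 probe set differed by -0.29 (adjusted p = 0.0395), and the mean of both by -0.22 (adjusted p = 0.0360).

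The 10 genes filed as p53 targets and stress genes divided, with 3 that rose, 3 that fell and 4 that did not pass, and a median difference of 0.06. Targets of p53 that act in cell death, such as Fas, were filed under their death role. Sesn1, which encodes a sestrin that damps growth signalling under stress, was at 8.996, 9.17, 9.17 and 9.21 in the knockout samples, against 9.65, 9.66, 9.93 and 9.41 in the wild-type samples. The groups stood apart, and Sesn1 fell by 0.52 (SE 0.10, adjusted p = 0.00166). Its 2 other probe sets fell by 0.63 and 0.70. Cdkn1a encodes p21, the inhibitor of cyclin-dependent kinases by which p53 halts the cell cycle. Its signals were 9.58, 9.51, 9.50 and 9.45 in the knockout samples, against 9.75, 9.76, 9.69 and 9.69 in the wild-type samples. The groups did not overlap although they were close, and Cdkn1a fell by 0.21 (SE 0.05, adjusted p = 0.00508). The call was lost without the 3 arrays with low hybridization controls (-0.16, adjusted p = 0.0960). Plk2, a polo-like kinase induced by p53, was at 5.49, 5.75, 5.78 and 5.54 in the knockout samples, against 5.83, 5.92, 6.09 and 5.90 in the wild-type samples. It fell by 0.30 (SE 0.08, adjusted p = 0.0143), with the highest knockout sample just under the lowest wild-type sample, and differed by -0.32 (adjusted p = 0.0655) without those 3 arrays.

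The rises among the p53 targets were led by Gadd45b and Tigar. Gadd45b, a small stress protein that binds kinases of the p38 and JNK pathways, was at 7.70, 7.35, 7.50 and 7.48 in the knockout samples, against 7.07, 6.89, 7.10 and 6.85 in the wild-type samples. All knockout samples were above all wild-type samples, and Gadd45b rose by 0.53 (SE 0.08, adjusted p = 0.000555), a ratio of 1.45. Its relative Gadd45a, the better known p53 target of the pair, was not called, with 8.14 to 8.45 in the knockout samples and 8.34 to 8.82 in the wild-type samples. The Gadd45a difference was -0.29 (SE 0.10, adjusted p = 0.0546), just short of the threshold. It passed without wild type replicate 2, the lowest of its group (-0.39, adjusted p = 0.00530), without the 3 arrays with low hybridization controls (-0.45, adjusted p = 0.0153), and under quantile or cyclic loess normalisation, array weights, eBayes with trend and robust, or the filter on dim genes (adjusted p from 0.0252 to 0.0461). Tigar, a phosphatase that turns glucose use away from glycolysis, was at 6.53, 6.43, 6.35 and 6.44 in the knockout samples, against 5.99, 6.10, 6.04 and 5.94 in the wild-type samples. The knockout samples were again all higher, and Tigar rose by 0.42 (SE 0.05, adjusted p = 0.000167). Its 2 dimmer probe sets differed by -0.09 and 0.03, and the mean of all 3 by 0.12 (adjusted p = 0.155). Zmat3, a zinc finger protein that binds RNA, was at 6.70, 6.65, 6.70 and 6.62 in the knockout samples, against 6.47, 6.55, 6.56 and 6.56 in the wild-type samples. Zmat3 passed narrowly, at 0.13 (SE 0.05, adjusted p = 0.0495), and leaving out any 1 array other than knockout replicate 4 lost the call, with adjusted p values from 0.0733 to 0.132. The call was also lost with cyclic loess, eBayes with trend and robust, or a block for replicate number (adjusted p from 0.0917 to 0.135). The same held on adjusting for the hybridization controls (adjusted p = 0.127) and without the 3 arrays (adjusted p = 0.148).

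The remaining genes filed as p53 targets did not pass on the probe set used for each gene. Ei24, a membrane protein of the endoplasmic reticulum, differed by 0.09 (SE 0.04, adjusted p = 0.130) although its knockout samples were all higher, at 9.55 to 9.61 in the knockout and 9.45 to 9.54 in wild type. Ccng1, which encodes cyclin G1, differed by 0.11 (SE 0.07, adjusted p = 0.266). Ccng1 passed without knockout replicate 1 (0.18, adjusted p = 0.0475), and its 2 dimmer probe sets rose by 0.25 and 0.32. The mean of its 3 probe sets also passed (0.23, adjusted p = 0.00874). Perp, a membrane protein of desmosomes, differed by 0.03 (SE 0.06, adjusted p = 0.745).

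Promoters were searched for the p53 half-site, the motif of 10 bases of which p53 binds a pair, from 250 bases before to 50 after each RefSeq start in mouse assembly GRCm38.p6. The motif is its own reverse complement, so 1 search covers both strands, and overlapping matches were kept. Of the 38 genes, 34 had an entry, with 48 promoters, and 10 of these (20.8%) held a half-site, against 8.36% of all 32851 promoters. The list was chosen to include p53 targets, so the higher share may follow from that choice and is not a finding about these samples. Of the 8 measured genes with a half-site, Cdkn1a, Sesn1, Bmf and Birc2 fell, and Mdm2, Ccng1, Gadd45a and Ei24 did not pass. These 4 falls in 8 genes are close to the 47.2% that fell among all 36 measured genes. A pair of half-sites with a gap of at most 13 bases was found in 24 promoters (0.0731%), and among the members in Cdkn1a alone. A match describes these letters and not binding. Sequences of the genes that did not pass are not printed. Only the promoters of the 4 genes that fell are shown, each read along its own gene with half-sites in capitals. They lie at chr17:29090729-29091028 (plus strand), chr10:41887189-41887488 (plus strand), chr2:118544538-118544837 (minus strand) and chr9:7836757-7837056 (minus strand).
Cdkn1a: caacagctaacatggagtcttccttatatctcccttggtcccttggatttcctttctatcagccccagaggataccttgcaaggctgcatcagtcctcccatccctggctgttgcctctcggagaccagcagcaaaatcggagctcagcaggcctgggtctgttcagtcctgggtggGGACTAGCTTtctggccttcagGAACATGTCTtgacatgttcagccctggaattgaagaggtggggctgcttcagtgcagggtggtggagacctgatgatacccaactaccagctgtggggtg
Sesn1: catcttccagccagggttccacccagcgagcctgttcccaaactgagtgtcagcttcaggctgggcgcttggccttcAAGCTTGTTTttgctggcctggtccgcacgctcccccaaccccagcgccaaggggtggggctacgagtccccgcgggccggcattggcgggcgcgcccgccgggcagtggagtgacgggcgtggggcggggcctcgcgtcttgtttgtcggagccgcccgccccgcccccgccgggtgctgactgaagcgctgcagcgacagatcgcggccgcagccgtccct
Bmf: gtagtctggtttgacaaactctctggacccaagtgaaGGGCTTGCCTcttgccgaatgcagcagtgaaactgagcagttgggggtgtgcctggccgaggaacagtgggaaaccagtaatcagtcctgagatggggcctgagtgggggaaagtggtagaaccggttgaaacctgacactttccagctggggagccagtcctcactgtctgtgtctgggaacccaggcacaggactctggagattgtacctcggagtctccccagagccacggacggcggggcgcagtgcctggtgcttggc
Birc2: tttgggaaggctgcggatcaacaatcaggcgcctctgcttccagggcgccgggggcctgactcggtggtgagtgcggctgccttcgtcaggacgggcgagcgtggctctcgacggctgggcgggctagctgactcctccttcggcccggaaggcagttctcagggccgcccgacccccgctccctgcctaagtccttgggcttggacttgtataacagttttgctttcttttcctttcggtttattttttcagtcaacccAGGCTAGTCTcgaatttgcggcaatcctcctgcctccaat

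Of the 7 BH3-only genes, 4 fell, none rose and 3 did not pass, with a median difference of -0.43. Pmaip1 encodes NOXA, which binds and neutralises MCL1. Its signals were 7.47, 7.41, 7.28 and 7.44 in the knockout samples, against 8.74, 8.18, 8.64 and 8.67 in the wild-type samples. Pmaip1 had the largest fall of the 36 genes, 1.16 (SE 0.11, adjusted p = 2.36e-05), a knockout over wild-type ratio of 0.448. Bcl2l11, which encodes BIM, a strong activator of the mitochondrial route, was at 6.84, 6.92, 6.60 and 6.48 in the knockout samples, against 7.42, 7.45, 7.77 and 7.37 in the wild-type samples. It fell by 0.79 (SE 0.11, adjusted p = 0.000280), with a wide gap between the groups, and 2 of its other probe sets fell by 0.49 and 0.24. The other 2 were dim and pull the average over its probe sets to -0.32 (adjusted p = 0.000643). Bid, the BH3-only protein that caspase 8 cuts to link the death receptor and mitochondrial routes, was at 7.44, 7.46, 7.21 and 7.46 in the knockout samples, against 8.09, 7.88, 8.29 and 7.80 in the wild-type samples. It fell by 0.62 (SE 0.10, adjusted p = 0.000790), and by 0.39 as the mean of its 3 probe sets. Bmf, a BH3-only protein held at the cytoskeleton in healthy cells, was at 5.59, 5.59, 5.42 and 5.52 in the knockout samples, against 5.89, 6.03, 6.16 and 5.78 in the wild-type samples. It fell by 0.43 (SE 0.08, adjusted p = 0.00154), and by 0.26 as the mean of its 3 probe sets. Without the 3 arrays with low hybridization controls its difference was -0.35 (adjusted p = 0.0549).

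Among the BH3-only genes that did not pass was Bbc3, which encodes PUMA, the BH3-only protein most closely tied to p53. It was at 5.85, 5.62, 5.72 and 5.80 in the knockout samples, against 5.93, 5.96, 5.77 and 5.84 in the wild-type samples. The Bbc3 groups overlapped, with a difference of -0.13 (95% interval -0.27 to 0.01, adjusted p = 0.166). Bad, which survival kinases keep inactive, differed by 0.13 (SE 0.07, adjusted p = 0.191), while its other probe set rose by 0.15 (adjusted p = 0.0347). The mean of both Bad probe sets passed (0.14, adjusted p = 0.0448). Bik differed by 0.01 (SE 0.07, adjusted p = 0.949) at a dim signal, under the array-wide median, so little can be read from it. Of the T lymphocyte markers, 10 of 10 measured fell beside these genes, with a list mean of 5.53 to 5.82 in the knockout samples and 6.85 to 7.03 in the wild-type samples, and Cd8b1 and Cd2 under the array-wide median. Their part in the falls of Pmaip1, Bcl2l11, Bid and Bmf was not tested.

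Bak1, the measured one of the pore-forming effectors in the list, moved the other way. It was at 8.11, 8.15, 8.01 and 8.29 in the knockout samples, against 7.87, 7.90, 7.65 and 7.87 in the wild-type samples. Every knockout sample was higher, and Bak1 rose by 0.32 (SE 0.07, adjusted p = 0.00639), a ratio of 1.25. A second, dimmer Bak1 probe set rose by 0.25 (adjusted p = 0.0416). Bok, another BCL2 family gene, was counted among the other death genes below and is named because its value was seen. It fell by 0.58 (SE 0.06, adjusted p = 4.12e-05), with every knockout sample lower.

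Of the 4 BCL2 survival genes, which bind BH3-only proteins and keep the mitochondrial membrane closed, 3 fell, none rose and 1 did not pass. Bcl2l1, which encodes BCL-XL, was at 7.40, 7.47, 7.35 and 7.37 in the knockout samples, against 7.78, 7.95, 7.72 and 7.73 in the wild-type samples. It fell by 0.40 (SE 0.06, adjusted p = 0.000481), and the knockout samples sat close together below the wild-type samples. Its 3 other probe sets were all dim and differed by -0.01 to 0.01, so the mean over its probe sets was -0.10 (adjusted p = 0.0641). Bcl2, the founding member of the family, was at 5.92, 5.91, 5.87 and 5.67 in the knockout samples, against 6.19, 6.17, 6.44 and 6.07 in the wild-type samples. It fell by 0.38 (SE 0.08, adjusted p = 0.00529), a call lost without the 3 arrays with low hybridization controls (-0.32, adjusted p = 0.0733). Bcl2l2, which encodes BCL-W, was at 7.93, 7.95, 7.85 and 7.84 in the knockout samples, against 8.07, 8.06, 8.16 and 8.09 in the wild-type samples. It fell by 0.21 (SE 0.05, adjusted p = 0.00695), every knockout sample being lower. The Bcl2l2 call was lost without those 3 arrays (-0.17, adjusted p = 0.0855) and as the mean of 4 probe sets (-0.07, adjusted p = 0.234). Mcl1, the short-lived survival protein that NOXA targets, was at 10.82, 10.88, 10.82 and 10.57 in the knockout samples, against 10.85, 11.02, 10.90 and 10.92 in the wild-type samples. The groups overlapped, and Mcl1 differed by -0.15 (95% interval -0.30 to 0.00, adjusted p = 0.136). It passed with cyclic loess normalisation (-0.24, adjusted p = 0.0242), and 1 of its 2 other probe sets fell by 0.28 while the second differed by 0.03.

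**Figure D2:**
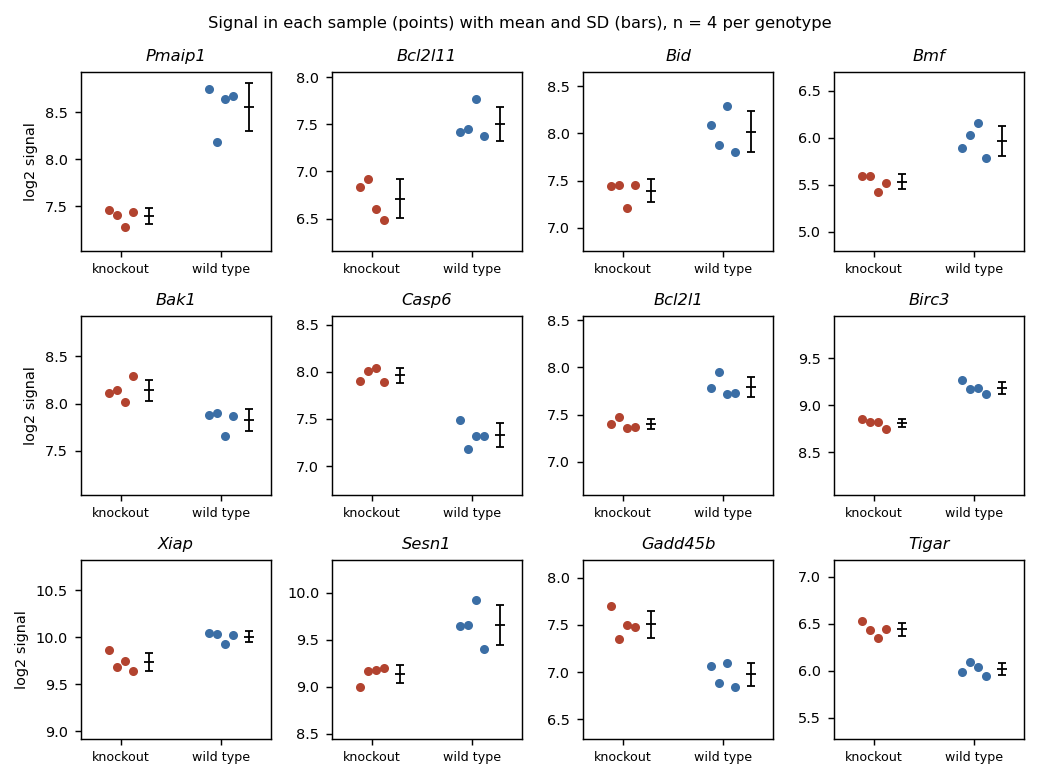
Log2 signal of 12 members in each sample, knockout left and wild type right in every panel, with the mean and SD (n = 4) beside the points; all panels span the same number of log2 units. Pmaip1, Bcl2l11, Bid, Bmf, Bcl2l1, Birc3, Xiap and Sesn1 have every knockout point below every wild-type point, and Bak1, Casp6, Gadd45b and Tigar have every knockout point above.

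Of the 8 genes of the death receptor route, the apoptosome and the caspases, 3 rose, 2 fell and 3 did not pass, with a median difference of 0.06. Fas, the death receptor itself and a p53 target, was at 6.85, 6.47, 6.60 and 6.55 in the knockout samples, against 7.16, 7.13, 7.10 and 6.92 in the wild-type samples. It fell by 0.46 (SE 0.08, adjusted p = 0.00172), with knockout replicate 1 nearest to wild type, and differed by -0.40 (adjusted p = 0.0593) without the 3 arrays with low hybridization controls. Fadd, the adaptor that couples FAS to caspase 8, was at 6.62, 6.48, 6.56 and 6.64 in the knockout samples, against 6.47, 6.26, 6.27 and 6.31 in the wild-type samples. In contrast to its receptor, Fadd rose by 0.25 (SE 0.06, adjusted p = 0.00847). It rose by 0.14 as the mean of 2 probe sets (adjusted p = 0.0396) and did not pass without those 3 arrays (0.20, adjusted p = 0.131). Casp8, the initiator caspase of this route, was at 9.89, 9.60, 9.62 and 9.71 in the knockout samples, against 9.97, 9.88, 9.70 and 9.98 in the wild-type samples. The Casp8 groups overlapped, with a difference of -0.18 (SE 0.08, adjusted p = 0.128). It passed without knockout replicate 1 (-0.24, adjusted p = 0.0342), without wild type replicate 3 (-0.23, adjusted p = 0.0444), with quantile normalisation (-0.22, adjusted p = 0.0476) and with cyclic loess normalisation (-0.26, adjusted p = 0.0251).

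Casp6, an executioner caspase that cuts nuclear lamins, was at 7.90, 8.01, 8.04 and 7.89 in the knockout samples, against 7.49, 7.18, 7.32 and 7.32 in the wild-type samples. It had the largest rise of the 36 genes, 0.63 (SE 0.07, adjusted p = 4.96e-05), a ratio of 1.55, with a clear gap between the groups. Its other probe set lay under the array-wide median and differed by 0.01, and the mean of both rose by 0.32. Apaf1, the scaffold on which caspase 9 is activated, was at 8.72, 8.70, 8.66 and 8.67 in the knockout samples, against 8.96, 9.06, 9.01 and 8.93 in the wild-type samples. The spread within each genotype was small, and Apaf1 fell by 0.30 (SE 0.05, adjusted p = 0.000592). A second Apaf1 probe set fell by 0.31. Diablo, a mitochondrial protein that releases caspases from their inhibitors, was at 7.36, 7.27, 7.35 and 7.41 in the knockout samples, against 7.17, 7.21, 7.14 and 7.22 in the wild-type samples. Diablo rose by 0.16 (SE 0.05, adjusted p = 0.0237). This call was lost without knockout replicate 1, 3 or 4 or wild type replicate 1 or 3, with adjusted p values from 0.0508 to 0.0695. It was also lost as the mean of 2 probe sets (0.03, adjusted p = 0.633), with quantile or cyclic loess normalisation (adjusted p = 0.0603 and 0.0992), without the 3 arrays (adjusted p = 0.180) and on adjusting for the hybridization controls (adjusted p = 0.0902). The initiators Casp2 and Casp9 differed by 0.12 (SE 0.07, adjusted p = 0.241) and 0.01 (SE 0.10, adjusted p = 0.969). Proliferating cell markers rose beside Casp6, Fadd, Diablo and Bak1, 10 of 11 measured, with a list mean of 8.52 to 8.73 in the knockout samples and 8.03 to 8.17 in the wild-type samples. No marker of that list lay under the array-wide median, and its part in these rises was not tested.

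All 4 measured caspase inhibitors fell, with a median difference of -0.28. Birc3, which encodes cIAP2, a ubiquitin ligase of TNF receptor signalling, was at 8.85, 8.82, 8.82 and 8.75 in the knockout samples, against 9.27, 9.18, 9.18 and 9.12 in the wild-type samples. It fell by 0.37 (SE 0.05, adjusted p = 0.000184), with tight groups that stood well apart. Its close relative Birc2, which encodes cIAP1 and is the adjacent gene on chromosome 9 with 0 protein-coding genes between them, was at 7.42, 7.58, 7.51 and 7.51 in the knockout samples, against 7.68, 7.84, 7.83 and 7.84 in the wild-type samples. Birc2 fell by 0.29 (SE 0.06, adjusted p = 0.00198). Both cIAPs act mainly as ubiquitin ligases, while XIAP blocks caspases directly. Xiap was at 9.86, 9.69, 9.75 and 9.64 in the knockout samples, against 10.05, 10.03, 9.92 and 10.02 in the wild-type samples. It fell by 0.27 (SE 0.06, adjusted p = 0.00383) with no overlap. The call was lost as the mean of its 7 probe sets, 5 of which were dim (-0.11, adjusted p = 0.103), and without the 3 arrays with low hybridization controls (-0.22, adjusted p = 0.0770). Cflar encodes FLIP, the decoy that keeps caspase 8 inactive at the receptor, and neighbours Casp8 on chromosome 1. It was at 7.997, 7.93, 7.85 and 7.92 in the knockout samples, against 8.02, 8.29, 8.19 and 8.10 in the wild-type samples. The highest knockout and lowest wild-type samples nearly met, and Cflar fell by 0.23 (SE 0.06, adjusted p = 0.0185). The Cflar call was lost without knockout replicate 3 (adjusted p = 0.0548), without wild type replicate 3 (adjusted p = 0.0518), when its 5 probe sets were averaged (-0.13, adjusted p = 0.0546) and without the 3 arrays (-0.14, adjusted p = 0.215).

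Set side by side, the 8 survival genes, which are the BCL2 survival genes and the caspase inhibitors, had 7 that fell, 0 that rose and 1 that did not pass, with a median difference of -0.28. The 16 measured pro-death genes had 6 that fell, 4 that rose and 6 that did not pass, with a median of -0.06. The 12 measured p53 regulators and targets had 4 that fell, 3 that rose and 5 that did not pass, also with a median of -0.06. The shares that fell were 87.5%, 37.5% and 33.3%, beside 12.9% of all genes. Dim genes, which pass less often, are part of that 12.9%. The genes were also chosen with earlier results of these data known, so these shares may follow from that choice. The number of survival genes called lower was 3 of 8 when all probe sets of a gene were averaged, and also 3 of 8 without the 3 arrays with low hybridization controls, a fit on 5 arrays. It was 7 of 8 with all arrays and an adjustment for those controls.

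Averaged over genes in each sample, relative to the wild-type mean, the survival genes lay at -0.25, -0.24, -0.29 and -0.36 in the knockout samples, against -0.03, 0.05, 0.02 and -0.03 in the wild-type samples. The pro-death genes lay at -0.12, -0.17, -0.20 and -0.12 in the knockout samples, against 0.04, -0.01, 0.02 and -0.05 in the wild-type samples. Both classes were thus lower in every knockout sample, and the shift of the pro-death genes came with the BH3-only genes at -0.38, -0.38, -0.53 and -0.42 in the knockout samples, against 0.02, -0.06, 0.10 and -0.07 in the wild-type samples. The balance of the classes, pro-death minus survival, was 0.13, 0.08, 0.10 and 0.24 in the knockout samples, against 0.08, -0.06, -0.01 and -0.01 in the wild-type samples. Knockout replicate 2 and wild type replicate 1 overlapped in this balance. The genes filed as p53 targets and stress genes averaged -0.03 to 0.03 in the knockout samples and -0.04 to 0.06 in the wild-type samples, with full overlap, their 3 rises and 3 falls offsetting each other. This average leaves out genes tied to p53 that were filed under a death role, so it does not cover every p53 target in the list. Among those left out, Pmaip1, Fas and Apaf1 fell, while Bbc3 did not pass. These are examples, and the 16 measured pro-death genes they come from also had 4 that rose, led by Casp6. These averages are descriptions of chosen genes, and no test was made on them.

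**Figure D3:**
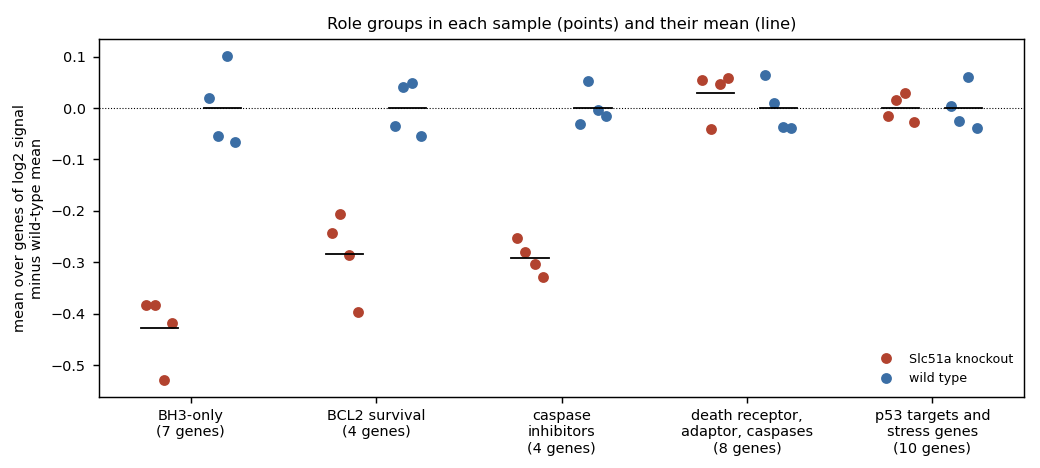
Mean over the genes of a role of log2 signal minus the wild-type mean, with 1 point per sample, knockout left and wild type right in each role, and lines for the group means. BH3-only genes, BCL2 survival genes and caspase inhibitors lie below wild type in all 4 knockout samples, while the death receptor and caspase genes and the p53 targets overlap.

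The 36 members had 84 probe sets in all, and 24 members had more than 1. Of the 24 members called, 18 had other probe sets. Another probe set of the same gene had the same call in 9 of these, among them Sesn1, Cdkn1a, Bcl2l11, Bid and Apaf1. In the other 9 no other probe set passed, and 0 had a call in the opposite direction. Of the uncalled members, 4 (Mdm2, Ccng1, Bad and Mcl1) had another probe set that passed. Most other probe sets that did not pass were dim, as for Bcl2l1, but not all. Probe sets above the array-wide median that did not pass included those of Cflar (-0.20, 0.05 and -0.06) and Bcl2l2 (-0.04 and -0.03). The identifiers of the Mdm4, Sesn1 and Bmf probe sets mark possible binding to other transcripts, as does that of Slc51a.

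To set the members against the rest of their pathways, 69 other p53 and apoptosis genes were read from the same test. Of the 62 measured, 18 rose, 9 fell and 35 did not pass, with a median difference of 0.09. The share that passed was 43.5%, beside 30.0% of all genes. Only 8 of the 62 were dim, and dim genes pass less often. Without dim genes, 19 of these other genes rose and 8 fell, while 45.5% of the 10929 genes left passed. These lists, too, were chosen with earlier results of these data known. Among 11 other survival genes, 5 rose, 2 fell and 4 did not pass (median 0.13), beside the 0 rises and 7 falls of the 8 survival members. Of these 11 genes, 1 of them dim, 63.6% passed, beside 30.0% of all genes and 45.5% of those that were not dim. Dad1, a subunit of the oligosaccharyltransferase whose loss triggers apoptosis, was at 10.79, 10.70, 10.78 and 10.75 in the knockout samples, against 10.48, 10.40, 10.41 and 10.31 in the wild-type samples. It rose by 0.35 (SE 0.05, adjusted p = 0.000280), and Hax1, a mitochondrial survival protein, rose by 0.28 (adjusted p = 0.00790). Tmbim6, which encodes BAX inhibitor 1, fell by 0.36 (SE 0.06, adjusted p = 0.000787). Bcl2a1a, a survival gene of blood cells with near-identical copies, fell by 0.92 (SE 0.13, adjusted p = 0.000331), on a probe set whose identifier marks binding to several transcripts, so the copy is uncertain. The Hax1 call was lost without the 3 arrays with low hybridization controls (0.17, adjusted p = 0.145).

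Among 19 other death genes, 8 rose, 3 fell and 8 did not pass (median 0.18), beside the 4 rises and 6 falls of the 16 pro-death members. Of these 19 genes, 1 of them dim, 57.9% passed, beside 30.0% of all genes and 45.5% of those that were not dim. Endog, a mitochondrial nuclease, was at 7.57, 7.60, 7.62 and 7.57 in the knockout samples, against 6.74, 6.70, 6.70 and 6.69 in the wild-type samples. It rose by 0.88 (SE 0.04, adjusted p = 3.34e-07), with almost no spread in either genotype. Ripk3, the kinase that starts necroptosis, a lytic form of death that needs no caspase, was at 8.22, 8.09, 8.13 and 8.24 in the knockout samples, against 7.38, 7.17, 7.02 and 7.17 in the wild-type samples. It rose by 0.98 (SE 0.07, adjusted p = 6.13e-06). Mlkl, the membrane-breaking protein that RIPK3 activates, is named because its value was seen, and it rose by 0.90 (SE 0.11, adjusted p = 0.000161). Aifm1, a flavoprotein of the mitochondrial space that takes part in chromatin breakdown once released, rose by 0.59 (SE 0.04, adjusted p = 6.97e-06). Tnfsf10, which encodes the death ligand TRAIL, was at 7.46, 7.48, 7.12 and 7.46 in the knockout samples, against 8.41, 8.14, 8.36 and 8.35 in the wild-type samples. It fell by 0.94 (SE 0.09, adjusted p = 2.49e-05). For Endog and Aifm1, both of which also serve mitochondria in living cells, a rise names the transcript and not a death process.

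**Figure D4:**
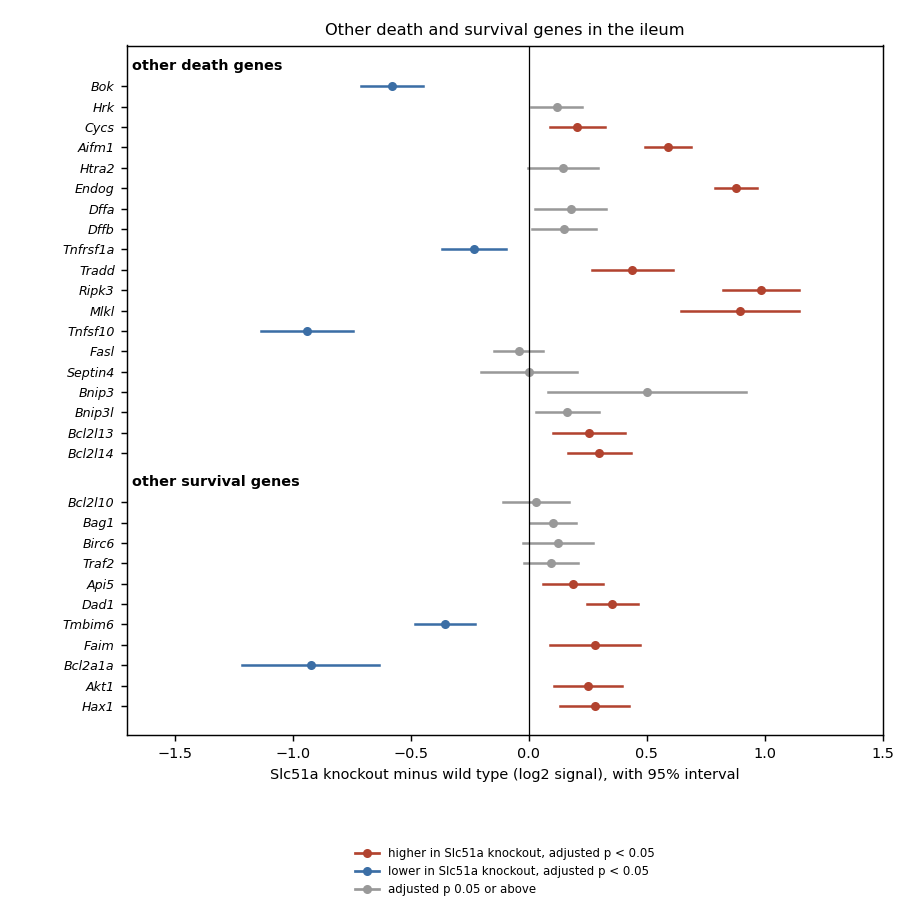
Difference in log2 signal, knockout minus wild type, for 19 other death genes and 11 other survival genes, with 95% intervals, n = 4 per genotype; red points rose, blue points fell and grey points did not pass. Ripk3, Mlkl, Endog and Aifm1 lie furthest on the higher side, and Tnfsf10 and Bcl2a1a furthest on the lower side.

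Of 20 other p53 targets, 3 rose, 3 fell and 14 did not pass, with a median difference of 0.02. The share that passed, 30.0%, was the same as the 30.0% of all genes. Ddit4, a stress-induced inhibitor of mTORC1, was at 8.31, 8.37, 8.77 and 8.13 in the knockout samples, against 7.35, 7.55, 7.87 and 7.24 in the wild-type samples. It rose by 0.90 (SE 0.15, adjusted p = 0.000951), the opposite direction to Sesn1, which damps the same kinase complex. Dglucy, a mitochondrial enzyme of D-glutamate, rose by 0.43 (SE 0.07, adjusted p = 0.000755). Cd82, a tetraspanin, fell by 0.50 (SE 0.05, adjusted p = 5.09e-05), and Trp53inp1, a stress protein that enhances p53 activity, fell by 0.40 (SE 0.08, adjusted p = 0.00334). The Trp53inp1 call was lost without the 3 arrays with low hybridization controls (-0.31, adjusted p = 0.0764). Of 12 other p53 regulators and DNA damage kinases, 2 rose, 1 fell and 9 did not pass. The share of these 12 genes that passed was below the 30.0% of all genes, and 3 of the 12 were dim. The kinases Atr and Chek2, which signal DNA damage to p53, rose by 0.31 (SE 0.05, adjusted p = 0.000838) and 0.37 (SE 0.08, adjusted p = 0.00431), and the Atr difference was 0.04 (adjusted p = 0.676) when its probe sets were averaged. Cdkn2a, whose ARF product blocks MDM2, fell by 0.14 (adjusted p = 0.0366) at a signal under the array-wide median, with a call lost on leaving out most single arrays.

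Markers of several cell types differed between the same samples. Mature enterocyte markers were lower for 10 of 11 measured, with a list mean of 10.08 to 10.29 in the knockout samples and 10.83 to 11.02 in the wild-type samples, and smooth muscle markers for 8 of 8, at 8.42 to 8.69 in the knockout samples and 9.18 to 9.60 in the wild-type samples. Myeloid markers were lower for 5 of 9, at 7.04 to 7.20 in the knockout samples and 7.30 to 7.61 in the wild-type samples, with Cd68 and Itgam under the array-wide median. B lymphocyte and plasma cell markers were lower for 3 of 6, at 6.18 to 6.83 in the knockout samples and 6.94 to 7.38 in the wild-type samples, with Pax5 under it. Paneth cell markers gave 0 calls in 4. Crypt stem cell markers were lower for 2 of 8 and higher for 0, and enteroendocrine markers were higher for 3 of 7. Enteric neuron and glia markers were lower for 4 of 6 (5 under the array-wide median). Tuft cell markers were lower for 2 of 6 (2 under it) and endothelial markers for 2 of 5 (3 under it). Goblet cell markers gave 1 higher and 2 lower of 6, and fibroblast markers 1 higher and 1 lower of 7 (2 under it). Acinar pancreas markers lay under the array-wide median for 4 of 4, at 4.00 to 4.14 in the knockout samples and 3.96 to 4.08 in the wild-type samples. The part of these cell types in the falls of the survival genes and of the BH3-only genes was not tested.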

How the data were processed

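Ileal RNA from 4 Slc51a knockout and 4 wild-type mice was labelled from 250 ng by 3' in vitro transcription and hybridised to 1 Affymetrix array per sample, per the labels' protocols. The deposited values are log2 probe set signals that the authors made with RMA, according to the submitters' processing notes, which give no version. RMA compresses dim signals, so low differences are understated, and no detection calls were used. The number of arrays limits the precision.

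Of 45141 probe sets, 104 were controls and 28898 had 1 symbol (551 had several, 15588 none listed); 28689 symbols were updated by Entrez identifier to RefSeq of GRCm38.p6. The brightest single-symbol probe set over 8 arrays stood for each of 17097 genes. The genotype difference was fitted in limma 3.58.1 under R 4.3.3 (lmFit, eBayes, 2-sided), and p values were adjusted over all genes by Benjamini-Hochberg, with 0.05 as the limit; the script was tested on simulated data. Intervals are 95%. Members and lists were chosen with earlier results of these data known. Members that passed are named with values in every sample, as are Mdm2, Bbc3, Mcl1 and Casp8, and up to 4 genes of each other list with the smallest adjusted p. The 19 alternatives were filters, normalisations, probe set means, eBayes options, array weights, a replicate block, hybridization controls as a covariate, fits without single or 3 arrays, and stricter thresholds. Promoters are from RefSeq. Figures were drawn with matplotlib 3.10.9.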

Additional observations from a re-analysis of the deposited data

Results flagged for a closer look

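Among 74 groups of 4 samples examined, 5 held a sample far from the other 3. Chance flags about 1 in 20 groups. What set these samples apart was the gap to the nearest sample, given here as a share of the group's whole range. Bid was lowest in knockout replicate 3, at 7.21 (share 0.948), which widens its difference from wild type. Sesn1 was lowest in knockout replicate 1, at 8.996 (share 0.843). Birc2 was lowest in wild type replicate 1, at 7.68 (share 0.926), the wild-type sample nearest to the knockout samples. Zmat3 was lowest in wild type replicate 1 as well, at 6.47 (share 0.888), and its difference was 0.11 (adjusted p = 0.132) without that sample. Bak1 was lowest in wild type replicate 3, at 7.65 (share 0.871). Bid, Sesn1, Birc2 and Bak1 remained called on leaving out any 1 array.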

How the results depend on the processing

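Of 683 comparisons of a member under 19 alternatives with its main result, 589 kept direction and side of the threshold, 63 lost the call, 17 gained one and 14 changed sign. Sesn1, Gadd45b, Pmaip1, Bid, Bcl2l11, Bak1, Casp6, Apaf1, Birc2 and Birc3 were called in all 17 refits. Without the 3 arrays with low hybridization controls 4 members were higher and 10 lower, and 5 other pathway genes were lower. With a fold of at least 1.5, 825 genes were called, with 1 member higher and 3 lower, and 5 other pathway genes higher and 2 lower. On leaving out 1 array, 4366 to 4945 genes were called, with 5 to 6 members higher, 16 to 18 members lower, 16 to 20 other pathway genes higher and 7 to 10 lower. Sign changes were confined to 3 uncalled members: Perp was -0.0526 with cyclic loess, Bik -0.0498 as a mean of probe sets, and Casp9 -0.0031 with cyclic loess, -0.0622 on dropping the 3 arrays and -0.122 after adjusting for the hybridization controls. Leaving out 1 array gave -0.0137 to 0.0596 for Perp, -0.0298 to 0.0624 for Bik and -0.0779 to 0.0756 for Casp9. The causes were not tested. Deviations from the genotype mean, compared across genes between same-numbered samples, correlated by 0.218, -0.051, 0.109 and 0.162. No values for differently numbered samples were set beside these, so whether the numbers pair the samples is not settled. With the replicate block 5190 genes were called, with 6 members higher and 18 lower. Fewer arrays and dim probe sets limit small differences.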
